A study of Equus caballus with 2 samples.

Results

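The small unmasked tags were short pieces of the stallion sperm transcriptome outside masked repeats. They were chosen by 3 properties of a tag, which is a stretch of the genome covered by clustered RNA-seq reads: a position on ECA1 to ECA31 or ECAX, a length of 24 to 34 bp, and a deposited sequence written wholly in upper case, that is, outside the repeats that genome assemblies mask with lower-case letters. No threshold of average coverage (AC, the mean read depth over a tag after normalization) was applied. Of the 19257 tags, 5191 (27.0%) met the rule. They made up 62.4% of the 8317 tags of this length on the placed chromosomes and 40.4% of the 12837 unmasked ones of any length there.

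The RNA came from 2 libraries of stallion spermatozoa, 1 for each of 2 reproductively normal, fertile horses without treatment. Ejaculates were freed of somatic cells and immature sperm on a density gradient, and 500 ng of total RNA per library went into SOLiD fragment sequencing with single-end reads of 50 bases. There was a single condition and no control tissue. The deposited file gives 1 AC per tag rather than 1 per horse, so no replicate error is given here and no comparison was tested over animals. For the 886 small unmasked tags whose AC could be looked up for each horse, the deposited AC was that of the higher horse in all 886, compared to 6 significant digits. These included all 422 with AC of at least 100. A high AC may therefore rest on 1 of the 2 libraries, and the rankings and shares of summed AC below carry that limit. The read count behind a tag is unknown, and the 95% exact (Clopper-Pearson) intervals given with shares cover counting error over tags only. The sperm label was checked on the protamine cluster, which encodes the proteins that pack sperm DNA. Its highest tag, at chr13:33206208-33207592, had AC of 1730.25, which ranked 139th of all tags, and none of its 12 tags was a small unmasked tag.

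Mature spermatozoa have little cytoplasm and are largely silent in transcription, and the RNA they carry was largely made during spermatogenesis. Small RNAs of several kinds are known in these cells, among them microRNAs (miRNAs), which pair with messenger RNAs through a short seed near their 5′ end, fragments of transfer and ribosomal RNA, and PIWI-interacting RNAs (piRNAs), which restrain transposons in the germ line and often begin with a uridine. A tag of this length is a piece of genome under short or shortened reads. Its length need therefore not be the length of an RNA molecule, and its strand was not given.

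The 10 small unmasked tags with the highest AC are shown first, because they carried 26.6% of the summed AC of all 5191. The letters are those of the deposited sequence, EcuCab2 assembly, printed in lower case. Capitals mark the longest stretch shared without mismatch, on either strand, with a tag of at least 50 bp and AC of at least 10000, where that stretch was 16 bases or longer.
chr7:41002289-41002320: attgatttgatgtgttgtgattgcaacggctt
chr18:28269842-28269874: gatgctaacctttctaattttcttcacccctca
chr2:50151962-50151990: atctgatttgagagcgccagcggtgcagg
chr25:8415431-8415460: atattagttgtcagggtttatgctgtagct
chr8:63673447-63673475: ttcctttcatgacatagaactcaaccaag
chr22:21498553-21498586: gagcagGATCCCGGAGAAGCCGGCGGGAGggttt
chr22:6929040-6929073: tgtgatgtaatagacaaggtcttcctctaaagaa
chr25:24416981-24417012: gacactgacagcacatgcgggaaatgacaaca
chr20:60921168-60921200: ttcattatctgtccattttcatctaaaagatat
chr13:11958842-11958870: accttcctgctagagaccaggagagagga

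A single tag stood apart at the top. The 32 bp tag on ECA7 had AC of 49976.7, which was 8.67 times the AC of the next one, 5761.22 on ECA18, and 16.4% of the summed AC of the small unmasked tags. It ranked 18th among all 19257 tags. The tags on ECA2 and ECA25 followed at 4986.48 and 4962.67, and the tag on ECA8 at 3194.59. From the sixth to the tenth the AC lay between 2740.08 and 2123.86, so that the second was 2.71 times the tenth and only the first was far from its neighbours in rank.

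None of the 10 was similar to any other deposited tag by the measure used here, at least 90% identity over at least 90% of its length. Their GC content ran from 24.2% to 67.6% and their length from 29 to 34 bp. The nearest other tag was 27756 to 289376 bp away from each, next to a median of 55511 bp for all small unmasked tags. The 34 bp tag on ECA22 with AC of 2740.08 was the only one of the 10 with a shared stretch of 16 or more bases. It shared 23 bases without mismatch with a 632 bp tag on unplaced sequence, chrUn:55098361-55098992, whose AC was 153853.4. Stretches of 16 or more bases shared with the 49 tags of at least 50 bp and AC of at least 10000 were found in 43 of the 5191 small unmasked tags (0.828%, 0.600 to 1.11%), against 19 of 2549 masked tags of the same length (0.745%, 0.449 to 1.16%).

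Most tags lay far below this top. The AC of the small unmasked tags ran from 5.12, at chr11:30049042-30049071, to the 49976.7 on ECA7, with quartiles of 11, 16.05 and 31.96. Very high AC (at least 100) was found in 422 tags (8.13%, 7.40 to 8.91%), high AC (over 10 and under 100) in 3825 (73.7%) and medium AC (up to 10) in 944 (18.2%, 17.1 to 19.3%). The 422 held 65.0% of the summed AC. AC of at least 1000 was reached by 25 tags on 16 chromosomes. The small unmasked tags together covered 142399 bases, 6.005% of the bases of all tags, and held 7.03% of the summed AC of all tags. When AC was multiplied by tag length, their part was 0.477%.

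Masked tags of the same length, which lie in repeats, had nearly the same AC distribution. Their quartiles were 11, 16.1 and 30.3, and 197 of 2549 (7.73%, 6.72 to 8.83%) had AC of at least 100, an interval that overlaps that of the unmasked ones. The partly masked tags of this length had a median AC of 15.3, with 52 of 577 (9.01%, 6.80 to 11.7%) at 100 or more. Longer unmasked tags differed more. Among the 887 of 35 to 49 bp the median was 15.11, but 127 (14.3%, 12.1 to 16.8%) reached 100. Among the 6759 of 50 bp or more the median was 12.74 and 296 (4.38%, 3.90 to 4.89%) reached 100.

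**Figure D1:**
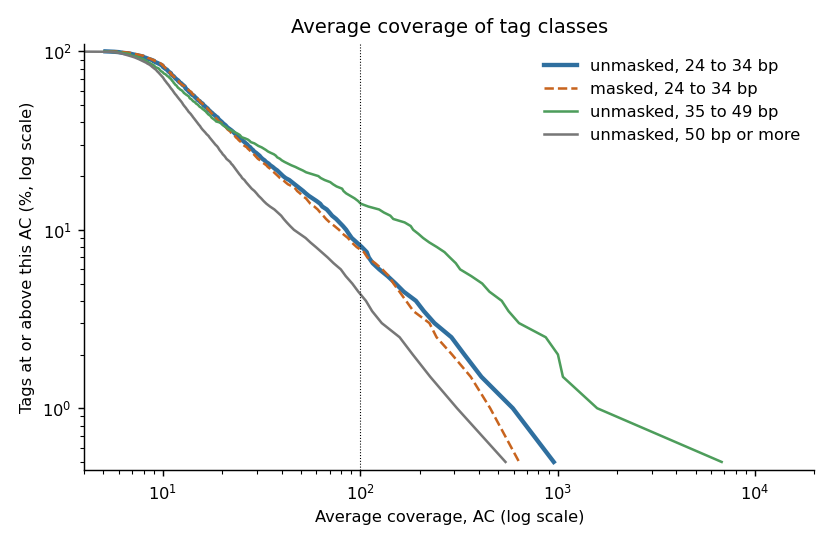
Share of tags at or above a given AC, both axes logarithmic, for 4 classes of tags on ECA1 to ECA31 and ECAX; each line ends at its highest 0.5% of tags and the dotted line marks AC of 100. The lines of unmasked (blue) and masked (orange, dashed) tags of 24 to 34 bp run together and cross AC of 100 at 8.13% and 7.73%, between unmasked tags of 35 to 49 bp (green, 14.3%) and of 50 bp or more (grey, 4.38%).

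Length divided the small unmasked tags more than masking did. The shortest tag in the whole file had 24 bp, and 689 small unmasked tags had that length. The number was highest at 25 bp, with 921 tags, and then fell at every step, through 794 at 26 bp, 609 at 27 bp and 346 at 30 bp, to 166 at 34 bp. No gap or second peak lay between 24 and 34 bp. The limit of 34 bp was the rule's own and marked no break, since 121 unmasked tags had 35 bp and 85 had 36 bp. The highest 34 bp tag was the one on ECA22 with AC of 2740.08, and the highest unmasked 35 bp tag, just outside the rule, lay at chr1:156434215-156434249 with AC of 9762.86.

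Coverage was higher at the longer lengths, where there were fewer tags, though not at every step. The median AC was 13.19 at 24 bp, 16.12 at 26 bp, 20.1 at 30 bp and 23.7 at 34 bp. AC of at least 100 was found in 13 of 689 tags at 24 bp (1.89%, 1.01 to 3.20%) and in 33 of 166 at 34 bp (19.9%, 14.1 to 26.8%). Grouped, 238 of 3999 tags of 24 to 29 bp (5.95%, 5.24 to 6.73%) and 184 of 1192 tags of 30 to 34 bp (15.4%, 13.4 to 17.6%) reached 100, and these intervals do not overlap. Masked tags had similar shares, with 5.52% (4.55 to 6.62%) at 24 to 29 bp and 15.3% (12.5 to 18.5%) at 30 to 34 bp. The mean length was 27.0 ± 2.71 bp (SD over 944 tags) for AC up to 10, 28.9 ± 2.82 bp for the 397 tags with AC from 100 to under 1000, and 31.2 ± 2.42 bp for the 25 tags at 1000 or more.

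**Figure D2:**
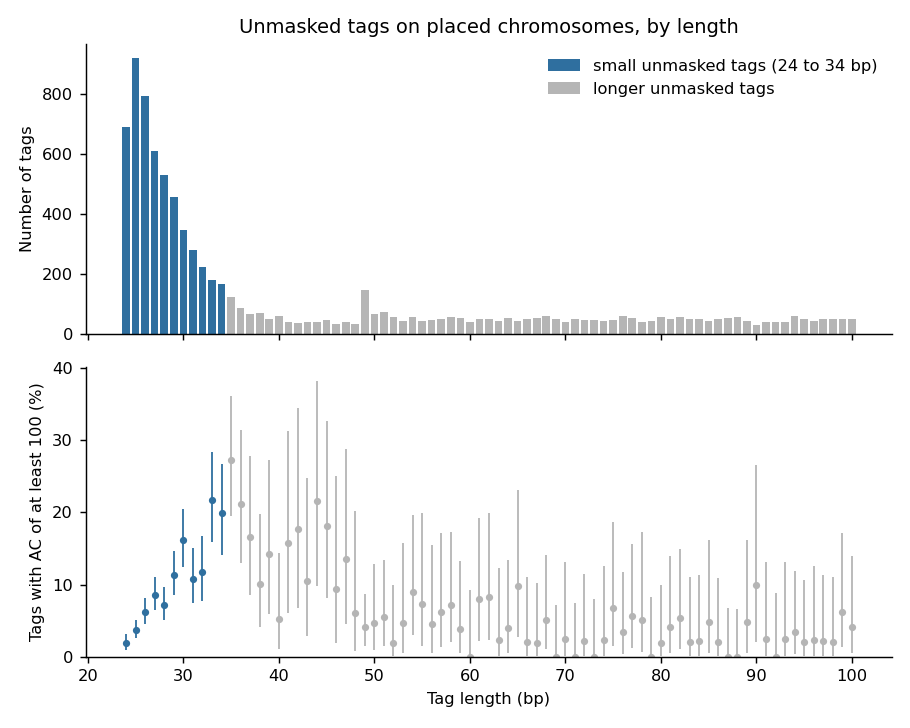
Top, number of unmasked tags on ECA1 to ECA31 and ECAX at each length from 24 to 100 bp, with the small unmasked tags in blue; bottom, percent of tags at each length with AC of at least 100, with exact 95% intervals over tags. The numbers fall from 921 at 25 bp to 166 at 34 bp, while the share with AC of at least 100 goes from 1.89% at 24 bp to 19.9% at 34 bp.

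The AC of the 24 bp tags also looked different as a number. Read at the 2 decimals of the deposited values, it was a whole number in 387 of the 689 (56.2%, 52.4 to 59.9%), against 96 of 921 at 25 bp (10.4%) and 197 of the 4502 tags of 25 to 34 bp together (4.38%, 3.80 to 5.01%). The masked 24 bp tags showed the same, 196 of 365 (53.7%, 48.4 to 58.9%).

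The base composition of the small unmasked tags was rich in adenine and thymine and flat along the tag. The mean GC content was 42.2% ± 14.4 (SD over 5191 tags). Over all positions, adenine made up 29.03%, thymine 28.8%, cytosine 21.1% and guanine 21.1%. At the first 24 positions, adenine ranged only from 27.3 to 30.7%, thymine from 27.1 to 29.9%, cytosine from 19.3 to 23.2% and guanine from 19.1 to 22.5%. No small unmasked tag held an undetermined base, and 32 held a run of 8 or more of a single base.

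The ends of the tags were examined for the base preferences of piRNAs, on both strands because the strand of the RNA was not given. The first base was T in 1495 of 5191 tags (28.8%, 27.6 to 30.1%), and the last base was A, which reads as T from the other strand, in 1456 (28.05%, 26.8 to 29.3%). Each interval holds the share of that base over all positions. Position 10 from the start was A in 28.5% (27.3 to 29.7%), and position 10 from the end was T in 28.7% (27.5 to 29.98%). Among the 422 tags with AC of at least 100, the first base was T in 30.1% (25.8 to 34.7%). The last was A in 23.9% (19.9 to 28.3%), below the 29.03% of adenine over all positions of all small unmasked tags. The 422 had a higher mean GC content, 44.8% against 42.2%, and their own base shares over all positions were not computed. Against the shares over all small unmasked tags, an excess of T at the first base, or of A at the last, was not detectable in either set. A preference of RNAs that fill only some of these tags, or that lie on either strand, would be diluted in these shares. According to the methods, cDNA was made with random hexamers and fragmented before sequencing, and reads that did not align were shortened. The ends of a tag need therefore not be the ends of an RNA, and these shares were no test for piRNAs.

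**Figure D3:**
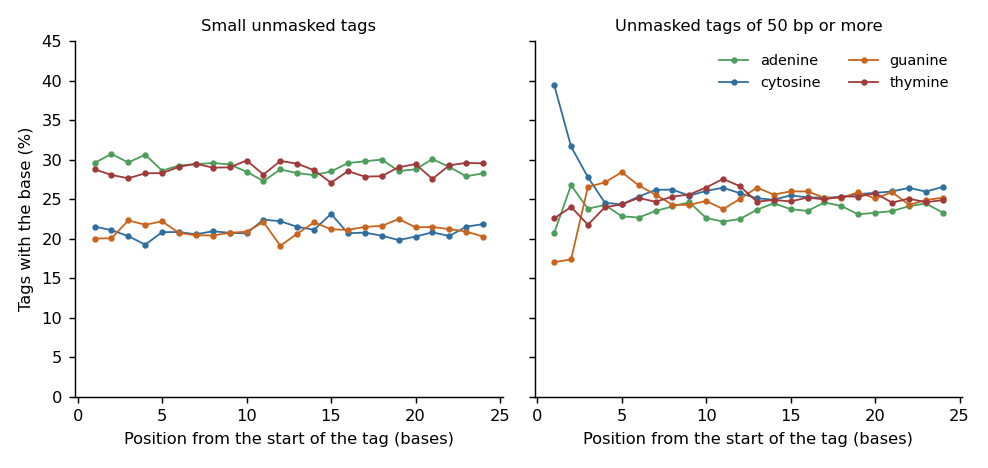
Percent of tags with each base at positions 1 to 24 from the start of the tag, for the 5191 small unmasked tags (left) and the 6759 unmasked tags of 50 bp or more (right). The 4 lines of the small tags are flat, with cytosine at 21.6% at the first base, while 39.5% of the longer tags start with cytosine.

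Longer unmasked tags did not have flat ends. Of the 6759 of 50 bp or more, 2670 (39.5%, 38.3 to 40.7%) started with C, against 1119 of the small unmasked tags (21.6%, 20.4 to 22.7%). They also had more GC, 52.1% ± 8.67 (SD over tags). The GC content increased with length class, from 42.2% to 45.6% ± 13.03 at 35 to 49 bp, and the masked tags of 24 to 34 bp had 39.99% ± 13.6. CpG dinucleotides, which are scarce in most of a mammalian genome and frequent in gene promoters, numbered 1.35 per 100 bases in the small unmasked tags, 0.931 in the masked ones and 2.80 in the unmasked tags of 50 bp or more. Relative to the number that each tag's own C and G content would give, this was 0.329, 0.256 and 0.411. Among the small unmasked tags, GC content was 42.2% ± 14.95 for AC up to 10 and 44.8% ± 15.5 for AC from 100 to under 1000.

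The small unmasked tags lay far from each other and from other tags. The nearest other tag of any kind was at a median distance of 55511 bp (quartiles 21332 and 119599 bp). Another tag lay within 10 kb of 680 of them (13.1%, 12.2 to 14.0%), within 1 kb of 119 (2.29%) and within 100 bp of 34 (0.655%). Masked tags of the same length were spaced alike, with a median of 59975 bp and 11.9% (10.7 to 13.2%) within 10 kb. Unmasked tags of 50 bp or more had a median distance of 1423 bp, and 77.3% (76.3 to 78.3%) had another tag within 10 kb. The 887 tags of 35 to 49 bp were between, at 35135 bp and 30.8% (27.8 to 33.9%). To the nearest unmasked tag of 100 bp or more, the median distance from a small unmasked tag was 738482 bp.

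**Figure D4:**
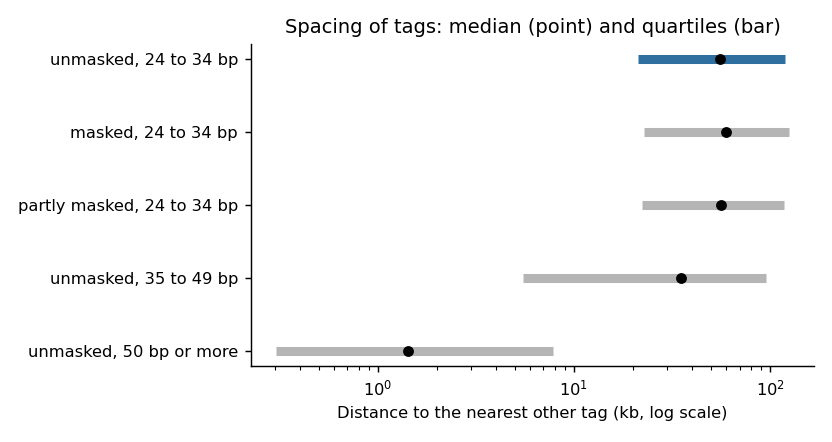
Distance from a tag to the nearest other deposited tag, in kb on a logarithmic axis, as median (point) and quartiles (bar) for 5 classes of tags. The 3 classes of 24 to 34 bp lie together with medians from 55511 to 59975 bp, and unmasked tags of 50 bp or more have a median of 1423 bp.

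Nearness to another tag went with little difference in coverage. The median AC was 15.02 for the 680 tags with a neighbour within 10 kb and 16.24 for the other 4511, and AC of at least 100 was found in 8.82% (6.80 to 11.2%) and 8.02% (7.25 to 8.86%). GC content was 44.0% ± 15.6 (SD over tags) in the 680 and 41.9% ± 14.2 in the 4511, and it was 49.9% ± 17.2 in the 119 tags within 1 kb of another tag.

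Groups of small unmasked tags were rare. Counted from the start of each tag, 5058 windows of 10 kb held that tag alone, 128 held 2 and 5 held 3, the most found. The window on ECA7 spanned 607 bp and is shown because 2 of its tags lie at coordinates that the study lists for MIR34B and MIR34C, members of the miR-34 family that is abundant in the testis. Capitals mark the 7-letter seed of the miR-34 family, GGCAGTG, or its reverse complement, CACTGCC.
chr7:20101149-20101176: gtaGGCAGTGtaattagctgattgtact
chr7:20101184-20101217, MIR34B: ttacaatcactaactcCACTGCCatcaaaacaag
chr7:20101727-20101755, MIR34C: ctaGGCAGTGtagttagctgattgctaat

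The first of these tags lay 8 bp before the second and had AC of 20.39. It is not at listed coordinates but holds GGCAGTG, and the second tag holds the reverse complement, CACTGCC. Whether these neighbouring tags come from the same miRNA gene was not tested, so the first need not be a separate miRNA. The deposited AC of the second was 336.58 and that of the third 21.31, so the middle tag of this small cluster was by far the highest. The other 4 windows lay on ECA1, ECA13, ECA20 and ECA21. Those on ECA13 and ECA20 held tags with AC from 10.31 to 50.68 spread over 9139 and 9095 bp, and those on ECA1 and ECA21 are described with the repeated sequences.

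Tags listed for miRNAs took up a small part of the set, though the set held 30 of the 64 such tags, which are 0.332% of all tags. At the coordinates of the study's miRNA list lay 30 of the 5191 small unmasked tags (0.578%). They carried 44 miRNA names, because the list gives several names for some tags. The study assigned names within a window that reached beyond gene boundaries, and a minority of its miRNAs aligned completely with equine miRNA genes. A listed tag therefore need not be the miRNA itself. The AC of the 30 ran from 8.61 to 336.58 with a median of 16.56, next to 16.05 for all small unmasked tags. Of the 30, 3 reached 100. By deposited AC, the 5 highest were the tags listed for MIR34B, MIR191 (AC of 160.38), MIR1905C (124.94) and MIR449A (81.75), and the tag listed for MIR764, MIR1264 and MIR1912 on ECAX (73.47). Of these, MIR449A belongs to the same seed family as the MIR34 genes and its tag held the same seed, again in capitals.
chr16:38001162-38001193, MIR191: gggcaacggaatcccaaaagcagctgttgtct
chr7:541073-541099, MIR1905C: tcccgtctgcgcggccagcggaggcca
chr21:17151964-17151989, MIR449A: ttGGCAGTGtattgttagctggttga
chrX:90696364-90696392, MIR764/MIR1264/MIR1912: ttaatactcgctttgaatgaaagagagaa

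The 3 miRNA seeds searched for were uncommon letters. GGCAGTG was held on either strand by 19 of the 5191 small unmasked tags (0.366%, 0.221 to 0.571%) and by 3 of the 30 listed for miRNAs. GAGGTAG, the seed of the let-7 family, was held by 14 (0.270%) and by 3 of the 30, the tags of MIRLET7D, MIRLET7G and MIRLET7A-2, with AC of 18.39, 17.43 and 14.91. AGCAGCA, the seed of the miR-15/16 family and also the start of miR-107, was held by 22 (0.424%) and by 3 of the 30, the tags of MIR15B/MIR16, MIR107A and MIR15A/MIR16-2, with AC of 70.84, 60.96 and 32.96. The tag listed for MIRLET7F held none of the 3. In all, 9 of the 30 held 1 of these 3 seeds or its reverse complement. Seeds of other miRNA families were not searched for, so a listed tag without capitals may still hold the seed of its own miRNA. The match is one of letters only, and a reverse complement is not shown to be a seed.

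The same sequence seldom occurred more than once. The 5191 small unmasked tags had 5175 distinct sequences when both strands were considered, and 23 tags (0.443%) fell into 7 sets of identical copies. The 3 sequences below are shown because they had the most copies, or, for the third, the highest AC among the 5 sequences with 2 copies.
chr14:36034822-36034854, 10 copies: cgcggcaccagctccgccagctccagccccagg
chr21:2711184-2711214, 3 copies: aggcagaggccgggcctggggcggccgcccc
chr5:35139914-35139945, 2 copies: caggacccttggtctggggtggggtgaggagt

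The 10 copies of the first lay within 82381 bp of ECA14, and 78.8% of their bases were G or C. An eleventh tag in the same stretch, at chr14:36042528-36042560, was similar but not identical to them. The 3 copies of the second lay within 234 bp of ECA21, with a GC content of 87.1%, and formed one of the windows with 3 tags. In each of the 7 sets, all copies carried the same AC: 108.42 for each of the 10 copies, 111.02 for each of the 3, 31.81 for each of the pair on ECA5, and 29.31, 23.75, 20.74 and 6.32 for the other pairs. The similar eleventh tag had 108.43. Reads with several similarly good alignments were removed before the AC was computed, according to the methods, and how identical copies came to carry the same AC was not tested. Since 13 of the 422 tags with AC of at least 100 were copies of 2 sequences, 8.13% became 7.94% when each sequence was counted once.

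Few small unmasked tags resembled longer ones. Similarity to any other deposited tag was found for 95 (1.83%, 1.48 to 2.23%), and to a tag of at least 50 bp for 28 (0.539%, 0.359 to 0.779%). None of the 28 matched without a mismatch over its whole length. Reads with several similarly good alignments had been removed before the AC was computed, and how far this set these shares was not tested. Their AC ran from 8.5 to 659.65 with a median of 19.5. Of the 5191, 10 were similar to the mitochondrial genome, represented by a 15387 bp tag with AC of 4390.4. Nuclear genomes are known to hold copies of mitochondrial DNA. The 3 highest of the 28 are shown.
chr1:160438540-160438571: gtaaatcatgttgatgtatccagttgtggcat
chr15:76715966-76715997: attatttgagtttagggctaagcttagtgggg
chr29:1547922-1547947: gacacaaacactcacatacacataca

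The tag on ECA1 had AC of 659.65 and was identical to the mitochondrial tag at 29 of 31 aligned bases. Its neighbours in a window of 918 bp, with AC of 18.53 and 10.36, were also similar to the mitochondrial genome, at 32 of 34 and 27 of 28 bases. The tag on ECA15 had AC of 64.64 and was closest to a 272 bp tag on ECA20 with AC of 1069.42, at 29 of 32 bases, and it was also similar to the mitochondrial tag, at 28 of 30. The tag on ECA29 had AC of 53.21 and matched a 69 bp tag on ECAX with AC of 11765.8 at 24 of 25 bases. Over the 28, AC was below that of the closest tag of at least 50 bp in 25 and above it in 3, among them a tag at chr24:20964663-20964696 with AC of 32.04 next to 20.97.

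The small unmasked tags were unevenly spread over the chromosomes. ECA1 had the most, 486, followed by ECA15 with 330 and ECA14 with 329, and ECA30 the fewest, 49. Per Mb, measured up to the last deposited tag of a chromosome, the density ran from 1.12 on ECAX and 1.18 on ECA9 to 3.61 on ECA15 and 3.74 on ECA11. ECA1 and ECA10 to ECA19 were grouped because they held more tags per Mb than the others in earlier results on these data. They held 2855 (55.0%, 53.6 to 56.4%) of the small unmasked tags on 38.2% of the summed span. All 11 had at least 2.46 small unmasked tags per Mb and all 21 others at most 2.39. Since the small unmasked tags are a part of all tags, a higher density on the 11 was partly built into the grouping. These 11 chromosomes are also those whose names stand first in alphabetical order.

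The unevenness was steepest in the tags of low coverage. Tags with AC up to 10 numbered 0.782 per Mb on the 11 chromosomes and 0.164 per Mb on the 21 others, a ratio of 4.78. The ratio was 1.90 for AC over 10 and up to 20 (1.31 and 0.688 per Mb), 1.80 for AC over 20 and up to 50 (0.692 and 0.386 per Mb), 1.08 for AC over 50 and under 100, and 1.04 for AC of at least 100. Accordingly the 11 chromosomes held 74.7% (71.8 to 77.4%) of the 944 tags with AC up to 10 and 39.1% of the 422 with AC of at least 100, the latter close to their part of the span. Of the 296 unmasked tags of 50 bp or more with AC of at least 100, 38.9% (33.3 to 44.7%) lay there. The lowest AC of a chromosome was 5.12 to 5.91 on the 11 and 5.62 to 9.18 on the 21 others, and the median AC of all small unmasked tags was 14.6 on the 11 together and 19.0 on the others.

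The 21 other chromosomes were not alike. ECA20 to ECA31 had from 0.172 to 0.499 tags with AC up to 10 per Mb, and ECA2 to ECA9 with ECAX had from 0.0582 to 0.227. Tags with AC of at least 100 did not follow these steps, with 0.0947 to 0.299 per Mb on the 11 chromosomes, 0.0595 to 0.305 on ECA20 to ECA31 and 0.0721 to 0.231 on ECA2 to ECA9 with ECAX. The methods state that loci of low coverage in both samples were removed. The limit they give lies far below 5.12, the lowest AC of a small unmasked tag. Whether any further removal by AC took place, or was the same on every chromosome, is not known here and was not tested. The densities, the share of 55.0% and the median AC of a chromosome would all depend on such a removal.

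**Figure D5:**
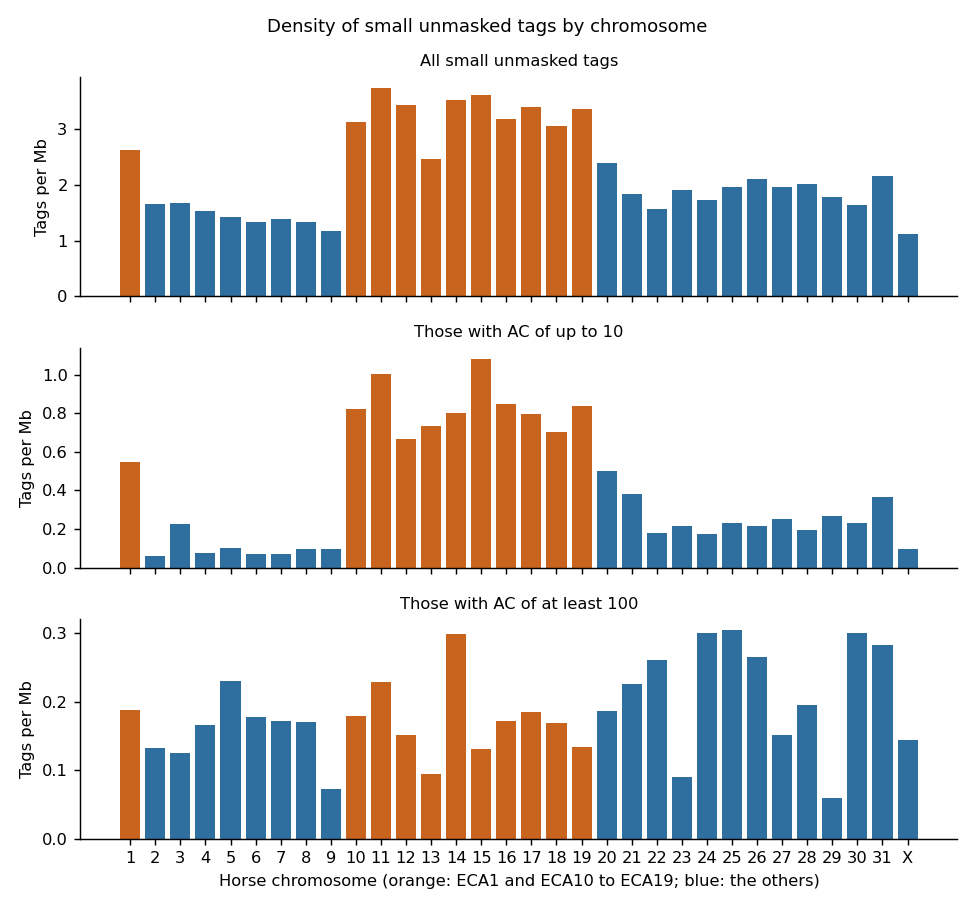
Small unmasked tags per Mb on each horse chromosome, measured up to its last deposited tag, for all of them (top), those with AC up to 10 (middle) and those with AC of at least 100 (bottom); orange bars are ECA1 and ECA10 to ECA19. The orange bars stand above all blue ones in the top and middle panels, from 2.46 against at most 2.39 per Mb and from 0.549 against at most 0.499 per Mb, and among them in the bottom panel. The grouping was itself made on tags per Mb in earlier results on these data.

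Longer unmasked tags varied more between chromosomes. Those of 100 bp or more ran from 0.238 per Mb on ECA29 to 10.6 per Mb on ECA11, a ratio of 44.5, against a ratio of 3.34 for the small unmasked tags. Within the 11 chromosomes they still varied 7.48-fold, from 1.42 per Mb on ECA19 to 10.6 on ECA11, while the small unmasked tags varied 1.52-fold. ECA19 thus had 3.36 small unmasked tags per Mb with few long ones, and ECA13 had 2.46 with 9.92 long ones. The share of a chromosome's tags that were small unmasked tags ran from 10.2% on ECA13 to 45.7% on ECA31. Across the 32 chromosomes both densities were correlated (Spearman's rho 0.81, Pearson's r 0.63), within the 11 the coefficients were lower (rho 0.17, r -0.01), and within the 21 others they lay between (rho 0.49, r 0.48). Chromosomes are not replicate samples and share the libraries, so these coefficients are descriptions.

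ECAX had 139 small unmasked tags and the lowest density, but its AC was not low. Its median was 19.7 and 18 tags reached 100. Its highest tag, shown for this, had AC of 954.09 and lay 134977 bp from the nearest other tag.
chrX:113248599-113248630: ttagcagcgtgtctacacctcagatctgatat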

How the data were processed

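Sperm total RNA of 2 stallions was measured by SOLiD RNA-seq, 1 library each. According to the methods of the study, the authors aligned the reads to EcuCab2 with NovoalignCS, shortened reads that did not align, removed reads with several similarly scoring alignments, clustered the alignments into tags and scaled them between the libraries. The deposited value is a coverage signal, AC, 1 per tag. It was used as deposited, and depth per tag is unknown.

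Selection, counts and intervals were made in Python 3.11.15 (numpy 2.4.6, scipy 1.17.1). Distance is measured between facing ends of tags. Similarity was searched with blastn 2.17.0 (short-query mode, word size 11, E-value up to 0.1). Densities used the end of the last deposited tag of each chromosome. The methods were tested on simulated tags. No test between groups was possible. The tags named were the 10 highest, the lowest, the highest on ECAX, the 5 highest at listed miRNAs, those in the 3 fullest windows of 10 kb (5 tied), the 3 most copied sequences, the 3 highest similar to a tag of at least 50 bp, and the highest at 34 and 35 bp. Beyond this rule, the tags of MIR34C and of the let-7 and miR-15/16 families, the eleventh tag of the ECA14 stretch and the tag on ECA24, were picked with values in view. The small unmasked tags and the lists were chosen with earlier results of these data known. The miRNA names come from the study's list by coordinates, and a named tag need not be the miRNA itself. No genome or annotation of EcuCab2 was used here, so positions in genes are not given.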

Additional observations from a re-analysis of the deposited data

How the results depend on the processing

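Of 29 alternatives, 14 stayed within the counting interval of the reported value (for the number of tags, within 1.5 times), and 15 did not. The number of tags stayed between 4345 and 6078. Limiting the length to 24 to 30 bp gave a median AC of 15.6 and 6.77% of tags with AC of at least 100, and extending it to 49 bp gave 9.03% with AC of at least 100 and a GC content of 42.7%. With AC over 10 alone, the median AC was 19.6 and the share on ECA1 and ECA10 to ECA19 was 50.6%. With AC of at least 100 alone, that share was 39.1% and the GC content 44.8%. Without those 11 chromosomes, the median AC was 19.0 and 11.002% of tags had AC of at least 100. Another tag lay within 1 kb of 2.29% and within 100 kb of 69.2%, and another small unmasked tag within 10 kb of 4.93%. Similarity to a tag of at least 50 bp was found for 0.212% when that tag had AC of at least 1000 and for 0% (at most 0.0710%, exact interval) when no mismatch was allowed. Counting each distinct sequence once was also applied to 2 further shares after the data were seen and moved neither beyond its interval. No paired analysis was possible because the deposited file gives 1 AC per tag, not 1 per stallion, and leaving out each stallion was not run for the same reason. The AC of each horse in the study's own tables served only to see how the deposited AC was made. The AC carries no read counts, so what depth would allow for a single tag is unknown.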
